A study of Mus musculus with 6 samples.

Results

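The melanosome and pigment epithelium genes are 10 mouse genes chosen by symbol: Pmel, Dct, Tyr, Tyrp1, Mitf, Mlana, Slc45a2, Rpe65, Lrat and Ttr. A probe set of any suffix was taken as a member when its gene symbol was on this list. Probe sets were listed for 9 of the 10 genes, 17 probe sets in all, out of 12393 genes and 22626 probe sets that were not controls. None was listed for Mlana, so it has no value here. Retinas were dissected from 3 Nhlh2 knockout mice and 3 wildtype mice at postnatal day 4 (P4), and the RNA of each mouse was measured on its own Affymetrix Mouse 430A 2.0 array. Nhlh2 encodes a basic helix-loop-helix transcription factor. The mice of both groups had a mixed C57/129 background, and a knockout and a wildtype mouse with the same replicate number were littermates, which gave 3 pairs. The knockout allele was not described further in the labels. No probe set was listed for Nhlh2 either, so its loss could not be checked on these arrays.

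The retinal pigment epithelium is a sheet of pigmented cells behind the photoreceptors. It makes melanin inside melanosomes, recycles the chromophore of the visual pigments and exchanges nutrients with the blood. Pmel forms the fibrils on which melanin is laid down. Tyr, Tyrp1 and Dct are the enzymes of melanin synthesis, and Slc45a2 is a melanosomal transporter. Mitf is the transcription factor that drives many of these genes in pigment cells. Rpe65 and Lrat are enzymes of the visual cycle, and Ttr, transthyretin, carries thyroid hormone and, bound to retinol-binding protein, vitamin A. Ttr is also a product of the choroid plexus. Neural crest melanocytes of the choroid and iris express the melanosome genes as well, but not the visual cycle genes.

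MITF is known to bind a 6-base motif, CATGTG, known as the M-box when a T precedes it. The motif was searched on both strands in the 300 bases around each gene's start in RefSeq (GRCm38.p6), from 250 before to 50 after. Of the genes described here, 6 had a promoter in that table, with 8 promoters in all. Of these 8 promoters 4 held the motif (those of Dct, Rpe65, Tyr and Tyrp1), against 14.2% of 32851 promoters, and 3 held the longer TCATGTG (Dct, Tyr and Tyrp1), against 3.77%. A match is a description of these letters, and binding was not measured. The matches are shown because these genes are described together below. Each is written 5′ to 3′ along the strand of its gene, with CATGTG or its reverse complement CACATG in capitals.
Tyr, chr7:87493516-87493545, minus strand, motif 21 bases before the start: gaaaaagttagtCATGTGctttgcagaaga
Tyrp1, chr4:80834155-80834184, plus strand, motif 46 bases before the start: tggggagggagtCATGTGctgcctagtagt
Dct, chr14:118052379-118052408, minus strand, motif 150 bases before the start: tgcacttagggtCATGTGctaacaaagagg
Dct, chr14:118052461-118052490, minus strand, motif 232 bases before the start: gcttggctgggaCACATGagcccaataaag
Rpe65, chr3:159598931-159598959, plus strand, motif 239 bases before the start: catggcaggccCACATGgctcttttttat

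The deposited values were MAS 5.0 signals on a linear scale, and the arrays did not share a common scale. Knockout 2 stood apart: its median signal was 9.0, against 51.4 to 95.6 on the other 5 arrays, and its 3′ to 5′ signal ratio for Actb was 274.1, against 1.378 to 1.556. Its correlation with any other array was at most 0.674, whereas the other 5 arrays correlated at 0.935 or more. On quantile normalized values, group differences of probe sets that passed the filter, Pearson correlations and the medians of gene lists are therefore given with and without it. Differences of probe sets below the filter are given with all arrays only. Markers of the neural retina were present on all wildtype arrays, with 8 of 8 measured genes above the array's median. Summed lens markers were 89.83 to 488.6 in knockout mice, against 5196, 89.91 and 126.3 in wildtype mice 1, 2 and 3, so wildtype 1 carried a lens signal that the other arrays lacked. These sums are of quantile normalized signals.

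In the wildtype retinas at P4 the melanosome genes Pmel, Dct, Tyrp1 and Tyr, together with Ttr, were above the median of the array in 3 of 3 mice. Mitf and Slc45a2 were near or below the median, and Rpe65 and Lrat were dim. Where a gene had several probe sets, the values below are those of its brightest, by the average of the 6 arrays. Percentiles give the share of an array's probe sets with a lower signal. They rank genes only roughly, because each probe set binds its RNA with its own efficiency.

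Pmel was the brightest of the melanosome genes. Its signal was 665, 126 and 569 in knockout mice 1, 2 and 3, against 908, 1182 and 487 in wildtype mice 1, 2 and 3. The wildtype mean was 858.8 ± 350.1 (SD, n = 3), at the 91.2 percentile on average. On the deposited scale knockout 2 was far below the other mice, and wildtype 3 was below knockout 1 and knockout 3, so the groups overlapped. After quantile normalization knockout 2 was instead the highest of the 6 mice, at 9.47 log2 units, and wildtype 3 the lowest, at 8.54.

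Dct, the dopachrome tautomerase, followed. Its signal was 435, 47.4 and 427 in knockout mice, against 735, 599.9 and 279.6 in wildtype mice, in the order of the replicate numbers. The wildtype mean was 538.3 ± 234.1 (SD, n = 3; percentile 85.4). Again wildtype 3 lay below knockout 1 and knockout 3. Leaving knockout 2 aside, Dct showed the same order of mice as Tyrp1 in the deposited signals, but not after quantile normalization.

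Tyrp1, which stabilises tyrosinase and acts after it in eumelanin synthesis, had a signal of 239, 8.3 and 222 in knockout mice and 419.5, 368 and 158 in wildtype mice (wildtype mean 315.0 ± 138.6, SD, n = 3; percentile 76.4). Its 2 other probe sets had wildtype means of 270.7 and 241.8. All 3 Tyrp1 probe sets were lowest in knockout 2, where they gave 8.3, 1.9 and 1.1. Wildtype 3 was the next lowest for each of them.

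Tyr, tyrosinase, the rate-limiting enzyme of melanin synthesis, had a signal of 173, 14.2 and 113 in knockout mice and 292.0, 281 and 124 in wildtype mice (wildtype mean 232.5 ± 93.86, SD, n = 3; percentile 70.9). The knockout values lay below those of wildtype 1 and wildtype 2, but knockout 1 was above wildtype 3. The 2 other Tyr probe sets were dim, at 19.0 to 61.9 in wildtype mice, and did not pass the filter. Tyr therefore rests on a single probe set, whose suffix (_a_at) marks probes shared by transcripts of the same gene.

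Mitf had a signal of 39.7, 9.5 and 64.9 in knockout mice and 129.1, 72.7 and 49.6 in wildtype mice (wildtype mean 83.80 ± 40.90, SD, n = 3; percentile 51.0). It was above the array's median in 3 arrays, wildtype 1, knockout 2 and knockout 3. The second Mitf probe set stayed below the median on all 6 arrays. Slc45a2 was dimmer still, with 26.0, 17.4 and 6.4 in knockout mice and 29.0, 40.3 and 14.1 in wildtype mice. The Slc45a2 groups overlapped, and neither of its 2 probe sets passed the filter.

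The visual cycle enzymes were the dimmest members. Lrat, which esterifies retinol, had a signal of 7.8, 0.3 and 3.0 in knockout mice and 9.0, 2.1 and 1.5 in wildtype mice. Rpe65, the isomerase that defines the mature pigment epithelium, had 5.8, 1.2 and 3.9 in knockout mice and 31.6, 14.4 and 13.3 in wildtype mice. Its wildtype mean was 19.77 ± 10.26 (SD, n = 3) at the 27.6 percentile. Both genes stayed below the median on all 6 arrays. Rpe65 is thus a defining marker of the pigment epithelium that was not above the middle of these arrays. Pmel, Dct, Tyrp1 and Tyr were above it in each wildtype mouse, but Slc45a2, a melanosomal transporter, was below it in each. Rlbp1 and Rdh5, described below and also made by the pigment epithelium, were above it in each wildtype mouse.

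Ttr was by far the brightest member. Its signal was 2308.8, 912.2 and 3901.2 in knockout mice, against 3128.5, 4131.8 and 4336.5 in wildtype mice. The wildtype mean was 3866 ± 646.5 (SD, n = 3; percentile 98.9). By its brightest probe set Ttr, unlike the melanosome genes, was highest in wildtype 3 and lowest of the wildtype mice in wildtype 1. The suffix of this probe set (_x_at) marks probes that may also bind other sequences. The 2 other Ttr probe sets lay at the 94.6 and 96.4 percentiles of the wildtype arrays. Of the wildtype mice, their deposited signals were lowest in wildtype 1 but highest in wildtype 2, at 1502.4 and 1992.9, against 1323.2 and 1584.8 in wildtype 3. After quantile normalization both were highest of the wildtype mice in wildtype 3.

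The order Ttr, Pmel, Dct, Tyrp1, Tyr, Mitf, with Slc45a2, Rpe65 and Lrat below them, held in each of the 3 wildtype mice, except that Rpe65 was above Slc45a2 in wildtype 1. The spread between mice was nevertheless wide, and the ranges of neighbours in this order overlapped from Pmel to Mitf and from Slc45a2 to Rpe65. Ttr did not overlap with Pmel, nor Mitf with Slc45a2, nor Rpe65 with Lrat.

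**Figure D1:**
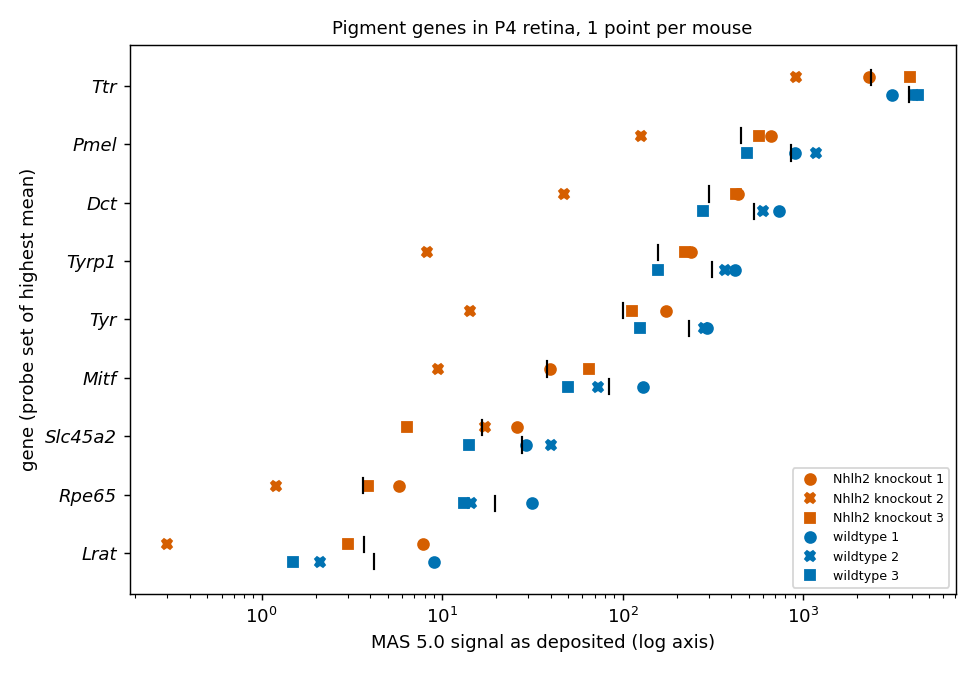
Signals as deposited, on a log axis, for the 9 genes with a probe set. Each point is 1 mouse, with Nhlh2 knockout above wildtype for each gene, marker shapes for the replicate number and a black bar at each group mean. Knockout 2 (cross) is lowest of the 6 mice for Ttr, Pmel, Dct, Tyrp1, Tyr and Mitf, and the Rpe65 signals of knockout mice, at most 5.8, lie below those of wildtype mice, at least 13.3.

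The wildtype mice differed among themselves more for the melanosome genes than for most probe sets. The highest wildtype signal was 2.428 times the lowest for Pmel, 2.630 times for Dct, 2.349 times for Tyr and 2.658 times for Tyrp1. After quantile normalization, which gives every array the same distribution, the range over the wildtype mice was 0.81 log2 units for Pmel, 1.12 for Dct, 0.84 for Tyr and 1.05 for Tyrp1. The median range over the 11603 probe sets tested was 0.43. These ranges were larger than those of 83.0%, 92.8%, 84.3% and 91.5% of tested probe sets. Mitf had a range of 1.08, larger than 92.0% of them, whereas the range of Ttr was 0.32, larger than 34.9%.

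The same wildtype mouse was low for the 4 melanosome genes. Wildtype 3 had the lowest normalized level of the wildtype mice for Pmel, Dct, Tyr and Tyrp1, which is 4 of the 6 genes that passed the filter, against 36.17% of all 6926 genes that did. Wildtype 1 had the highest level of the wildtype mice for 4 of these 6 genes (Dct, Tyr, Tyrp1 and Mitf), against 30.65%, and the highest of all 6 mice for the same 4, against 11.15%. Wildtype 1 was also the array with the lens signal. Its summed fibroblast markers were 255.0, against 146.7 and 131.0 in wildtype mice 2 and 3, and its summed melanocyte markers were 307.6, against 303.6 and 398.7. In wildtype mice the melanocyte sum is mostly Kit, a receptor that is not limited to melanocytes. The part of lens or fibroblast RNA in the levels of the pigment genes was not tested.

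The comparison of Nhlh2 knockout with wildtype retinas asked whether these genes differed with the loss of Nhlh2. No member passed the test. Of the 11603 probe sets tested with limma, 0 were called at an adjusted p under 0.05 (0%), and 14 had an unadjusted p under 0.05 (0.121%). Of the 10 member probe sets that passed the filter, which covered 6 genes, 0 were called and 0 had an unadjusted p under 0.05. Without knockout 2, 0 of the 11603 probe sets were called and 99 had an unadjusted p under 0.05 (0.853%). With a spread as wide as that between these mice, a difference of the sizes below could not be told from none.

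The estimates were close to 0 for Pmel, Dct and Ttr. On the normalized log2 scale, the difference of knockout minus wildtype was 0.04 for Pmel (SE 0.355, limma adjusted p = 0.956), 0.04 for Dct (SE 0.362, adjusted p = 0.960) and -0.03 for Ttr (SE 0.324, adjusted p = 0.962). Without knockout 2 it was -0.14 for Pmel, 0.04 for Dct and -0.12 for Ttr. The direction turned with the scaling for Ttr, which was at 0.43 after centring on the 75th percentile and at 0.30 after scaling to a common trimmed mean, and for Dct, which was at -0.04 with the trimmed mean.

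Tyr, Tyrp1 and Mitf had estimates below 0. Tyr was at -0.38 (SE 0.325, limma adjusted p = 0.742) with all arrays and at -0.34 (SE 0.289) without knockout 2. Its other probe sets, dim and below the filter, were above 0, at 0.85 and 0.56 in the limma fit without a filter, with all arrays. Both were highest in knockout 2, at 6.82 and 6.38 on the normalized scale, against at most 5.17 and 5.18 in the other mice. Tyrp1 was at -0.72 (SE 0.631, adjusted p = 0.742) with all arrays, and this estimate rested on knockout 2, because without it the value was -0.06 (SE 0.324). Mitf was at -0.16 (SE 0.441, adjusted p = 0.868) and at -0.29 without knockout 2. The other probe sets of Tyrp1 gave -1.48 and -1.72 with all arrays, and -0.36 and -0.31 without knockout 2. The 3 probe sets of Ttr gave estimates of both signs with all arrays, at -0.54, -0.03 and 0.33. Without knockout 2 they lay closer together, at 0.02, -0.12 and -0.08. Over the 6 genes the median difference was -0.10, beside -0.08 over all genes tested, and without knockout 2 it was -0.13, beside 0.02. When wildtype 1, the array with the lens signal, was left out as well, a choice made after seeing the data, the differences were -0.05 for Pmel, 0.32 for Dct, -0.13 for Tyr, 0.19 for Tyrp1, 0.07 for Mitf and -0.21 for Ttr, and again 0 probe sets were called.

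**Figure D2:**
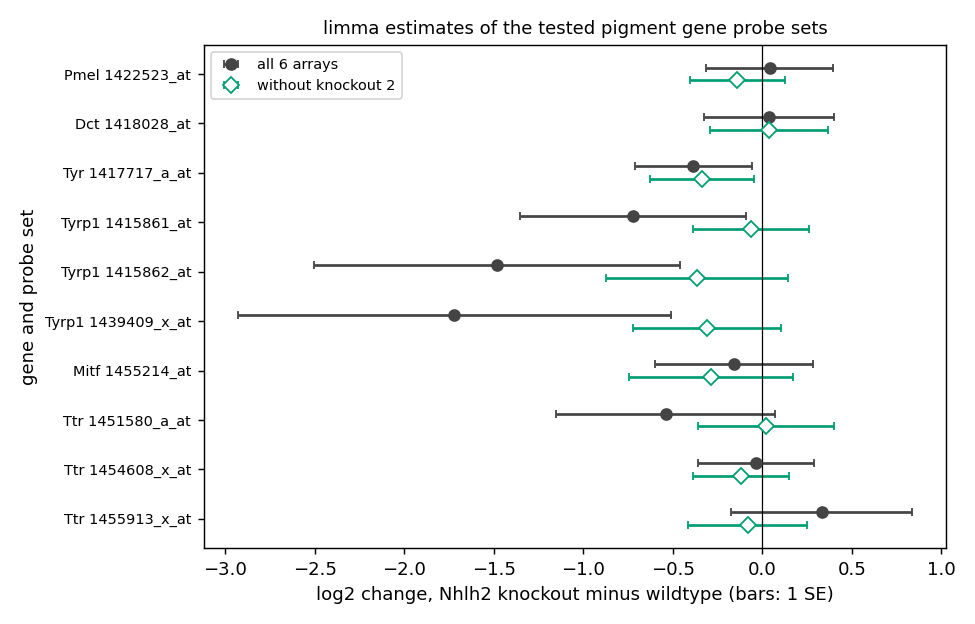
Estimated log2 difference, Nhlh2 knockout minus wildtype, of the 10 tested probe sets of these genes, with bars of 1 SE, for all 6 arrays (filled circles) and without knockout 2 (open diamonds). The 3 Tyrp1 estimates, at -0.72 to -1.72 with all arrays, lie between -0.06 and -0.36 without knockout 2.

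Of the 6 tested genes, only Tyr had the same sign in the 3 littermate pairs after quantile normalization, and it was close to 0 in pair 3. Rpe65, which was below the filter, was lower in the knockout mouse of each pair, at -2.01, -0.42 and -1.41. A dim Tyr probe set below the filter was higher in each, at 0.20, 1.76 and 0.59. In pair 1, 6 of 6 tested genes were lower in the knockout mouse, by -0.34 (Pmel), -0.64 (Dct), -0.59 (Tyr), -0.67 (Tyrp1), -1.42 (Mitf) and -0.36 (Ttr) on the normalized log2 scale, with a median of -0.62 beside 0.01 over all probe sets tested. In pair 3, 5 of 6 were higher in the knockout mouse, at 0.35 for Pmel, 0.70 for Dct, 0.56 for Tyrp1, 0.46 for Mitf and 0.10 for Ttr, while Tyr was at -0.01. The median there was 0.41, beside 0.00 over all probe sets. Ttr in pair 3 turned to -0.06 when arrays were centred on the 75th percentile. Pair 2, which holds knockout 2, gave 0.12 for Pmel, 0.07 for Dct, -0.56 for Tyr, -2.06 for Tyrp1, 0.49 for Mitf and 0.16 for Ttr. Wildtype 1 of pair 1 was the highest wildtype mouse for Dct, Tyr, Tyrp1 and Mitf, and wildtype 3 of pair 3 the lowest for Pmel, Dct, Tyr and Tyrp1, while for Ttr wildtype 1 was the lowest and wildtype 3 the highest. With a single mouse of each genotype per pair, differences between mice and between genotypes cannot be told apart within a pair.

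**Figure D3:**
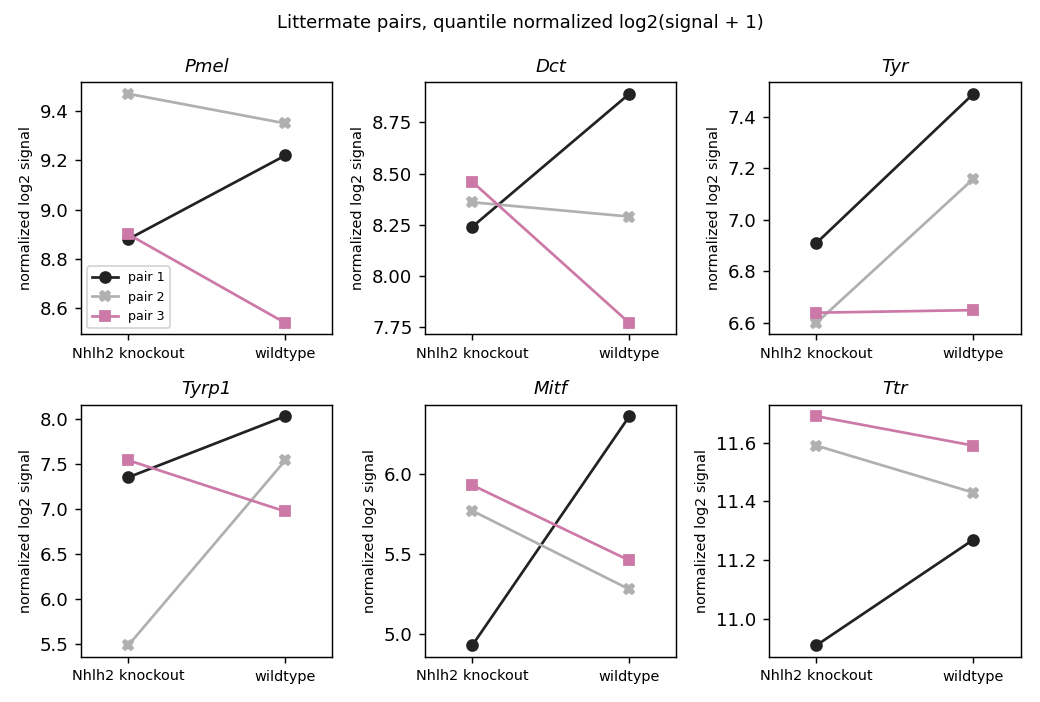
Quantile normalized log2(signal + 1) of the 6 tested genes in each littermate pair, Nhlh2 knockout on the left and wildtype on the right, joined by a line per pair. Lines of pair 1 (black) run upward to the wildtype mouse in every panel, and those of pair 3 (pink) run downward for Pmel, Dct, Tyrp1, Mitf and Ttr, and Tyr is nearly level there at -0.01. The vertical axes differ between panels.

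Rpe65 was the single member whose groups did not overlap. All 3 knockout signals (5.8, 1.2 and 3.9) were below all 3 wildtype signals (31.6, 14.4 and 13.3), and so were the percentiles, at 14.9, 16.8 and 14.0 in knockout mice, against 35.5, 20.5 and 26.8 in wildtype mice. After quantile normalization this held for 742 of 22626 probe sets, which is 3.28%. Rpe65 was below the filter. In the limma fit without a filter its difference was -1.28 (SE 0.458, adjusted p = 0.820). It was 1 of 17 probe sets of these genes with an unadjusted p under 0.05 in that fit, against 2.38% of all 22626. The difference was thus not past the threshold, and the signals were in the dim range of the arrays. Summed normalized signals of 6 fibroblast markers did not overlap either, at 72.02 to 120.9 in knockout mice and 131.0 to 255.0 in wildtype mice. Only 2 of the 6 genes (Col1a2 and Col3a1) were each lower in all 3 knockout mice. The eye muscle sums did not overlap and were higher in knockout mice, at 67.28 to 197.5, against 50.36 to 62.96 in wildtype mice. The highest of these sums was that of knockout 2, and only 1 of the 6 eye muscle genes was higher in all 3 knockout mice. No fibroblast or eye muscle gene passed the filter. The part of these tissues in the Rpe65 values was not tested. In whole retinas, the number of pigment epithelial cells in a sample, for whatever reason, and the RNA per cell cannot be told apart.

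Over the 6 arrays the 4 melanosome genes Pmel, Dct, Tyr and Tyrp1 varied together only in part. Pearson's r over their 6 gene pairs ran from -0.28 to 0.68, with a median of 0.47, and Spearman's rho from -0.09 to 0.83. By exact two-sided permutation tests over the 6 arrays, with Benjamini-Hochberg adjustment over 15 gene pairs, the lowest adjusted p was 0.780 for Pearson's r and 0.437 for Spearman's rho. Without the 2 arrays farthest from the median of the first gene, r over the remaining 4 ran from -0.68 to 0.76, and the relation did not hold for each pair. The values share litters and include the array that stood apart. Without knockout 2, r over 5 arrays was between 0.70 and 0.98 for the same 6 pairs. Dct and Tyrp1 had r = 0.35 over 6 arrays and 0.98 over 5.

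After quantile normalization Ttr did not follow these 4 genes over the 6 arrays. Its r with them was between -0.49 and 0.01 over 6 arrays, and between -0.42 and -0.19 without knockout 2. Without the 2 arrays farthest from the median of the first gene it ran from -0.97 to 0.86. With centring on the 75th percentile, r over 6 arrays was 0.54 with Pmel and -0.83 with Tyrp1, so it depended on the scaling and the arrays. After quantile normalization Mitf had r = 0.68 with Dct, 0.29 with Tyr, 0.26 with Pmel and 0.12 with Tyrp1 over 6 arrays. Without knockout 2 these were 0.68, 0.39, 0.23 and 0.67. For the relations of Ttr and Mitf too, on quantile normalized values, the adjusted p by the exact permutation test was 0.780 or more for Pearson's r. It was 0.437 or more for Spearman's rho.

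The genes whose pattern was most like the mean standardised level of the 6 tested genes were searched among 6920 other genes. Over 6 arrays they were Inppl1, a lipid phosphatase (r = 0.9307), Cdc42bpa, a kinase that binds Cdc42 (0.8728), Clvs1 (0.8691), Vstm2b (0.8528) and Igfbp5, which binds insulin-like growth factors (0.8506). Over the 5 arrays without knockout 2 they were Osgin2 (0.9999), the neurotrophin receptor Ntrk2 (0.9972), Dnajb4 (0.9900), E2f5 (0.9870) and Ankrd49 (0.9866). The 5 genes at the top differed between the searches. These r are the highest of 6920 and are given as a description.

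Other genes of the melanosome were mostly trafficking subunits that many cells use. Of 33 genes for melanosome biogenesis and transport, 25 had a probe set. On wildtype arrays 13 were above the median in 3 of 3 mice and 9 in none. The highest were Ap3d1, a subunit of the AP-3 adaptor, with a wildtype mean of 614.1 ± 21.20, and the BLOC-1 subunits Bloc1s6 with 488.0 ± 137.4 and Snapin with 401.4 ± 79.16 (SD, n = 3). Of the 13 that passed the filter, 0 were called in either direction, with a median difference of -0.09, beside -0.08 over all genes, and of 0.08 without knockout 2, beside 0.02.

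Oca2 and Gpr143, chosen after their values were seen, were below the median in each wildtype mouse. Oca2, a melanosomal anion transporter, had a signal of 62.4, 12.2 and 45.9 in knockout mice and 71.7, 84.8 and 27.7 in wildtype mice. Gpr143, a melanosomal receptor, had 18.3, 5.5 and 23.7 in knockout mice and 33.4, 34.3 and 9.1 in wildtype mice. Wildtype 3 was the lowest of the wildtype mice for both, but over the list this held for 9 of 25 genes. The genes of the list with the largest differences were Hps3 (-1.49, SE 1.069) and Lyst (-1.48, SE 0.987), both needed for lysosome-related organelles, and Hps4 (1.03, SE 0.688). Limma's adjusted p was 0.742 for each, and without knockout 2 they were at -0.21, -0.31 and 0.26.

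Among 23 regulators of pigment cells, 17 had a probe set and 5 were above the median in 3 of 3 wildtype mice. The brightest were Otx2 at 3173.3, 224.4 and 2382.1 in knockout mice and 3376.8, 5150.3 and 2650.3 in wildtype mice, then Pax6 and Kit. Otx2 and Pax6 also act in neurons of the retina, so their level is not specific to pigment cells. Of the 8 that passed the filter, 0 were called. The median difference was -0.35 with all arrays and -0.07 without knockout 2.

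Several other genes of the visual cycle and of retinoid handling were brighter than Rpe65 and Lrat. Of 18 genes, Rpe65 among them, 15 had a probe set, and 10 were above the median in 3 of 3 wildtype mice. Rlbp1, the retinaldehyde-binding protein of pigment epithelium and Müller glia, had 1787.8, 128.9 and 1213.7 in knockout mice and 1826.9, 2676.6 and 1454.9 in wildtype mice. Rbp3, the retinoid carrier that photoreceptors secrete, had a wildtype mean of 1604 ± 326.2, and Rdh10, a retinol dehydrogenase, 769.2 ± 198.6 (SD, n = 3). Rdh5, a retinol dehydrogenase of the pigment epithelium that was chosen after its values were seen, had 92.2, 7.4 and 117.7 in knockout mice and 136.8, 139.3 and 112.2 in wildtype mice, above the median in each wildtype mouse. None of these was called, nor was any of the 11 that passed the filter. The median difference was -0.38 with all arrays and 0.01 without knockout 2.

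For transport and phagocytosis by the pigment epithelium, 30 of 38 genes had a probe set, 15 were above the median in 3 of 3 wildtype mice, and 0 of the 18 that passed the filter were called (median difference 0.24, and 0.01 without knockout 2). The brightest were Cst3, a secreted protease inhibitor, Bsg, which chaperones lactate transporters, and Ptgds, a prostaglandin synthase. Their wildtype means were 3523 ± 634.7, 1422 ± 305.2 and 1286 ± 293.8 (SD, n = 3). These proteins are made by many cell types. Rrh, an opsin of the pigment epithelium, had 391.8, 0.6 and 252.1 in knockout mice and 352.3, 499.9 and 357.5 in wildtype mice, and its difference was -2.22 (SE 1.764, limma adjusted p = 0.742) with all arrays and -0.06 without knockout 2.

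Most markers of the other pigmented or Ttr-bearing tissues were not above the median in 3 of 3 wildtype mice. Of the melanocyte markers, 6 of 7 had a probe set, and Kit, a receptor that is not limited to melanocytes, was the only 1 of them above the median in 3 of 3 wildtype mice. Sox10, a factor of neural crest cells, had a signal of 26.9, 19.7 and 30.5 in knockout mice and 53.1, 43.6 and 54.1 in wildtype mice, below the median in each wildtype mouse. Summed melanocyte markers were 267.2 to 345.5 in knockout mice and 303.6 to 398.7 in wildtype mice. In wildtype mice Kit makes up most of this sum, with a mean signal of 349.0, against 52.17 for Gpnmb, the next.

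For the ciliary and choroid plexus epithelium, Ttr was the single marker above the median in 3 of 3 wildtype mice. The sums were 1955 to 3346 in knockout mice and 2623 to 3121 in wildtype mice, and Ttr makes up most of them. Folr1, a folate receptor of that epithelium, had 21.2, 1.3 and 21.6 in knockout mice and 149.0, 52.5 and 16.3 in wildtype mice, and Aqp1, its water channel, had 16.9, 5.5 and 15.7 in knockout mice and 98.8, 25.2 and 16.7 in wildtype mice. Both were highest in wildtype 1, where they exceeded the array's median of 76.2 and where Ttr was lowest of the wildtype mice. None of the marker genes was at 0 on any array. Of the lens, fibroblast, eye muscle, cornea and blood markers, 0 genes were above the median in 3 of 3 wildtype mice, and of 4 endothelium markers Kdr was. The sums were 67.28 to 197.5 in knockout mice and 50.36 to 62.96 in wildtype mice for eye muscle. They were at or under 154.1 in knockout mice and 49.23 in wildtype mice for cornea, and at or under 56.98 in knockout mice and 24.42 in wildtype mice for blood. Endothelium markers summed to 469.7 to 675.5 in knockout mice and 447.4 to 667.5 in wildtype mice.

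Summed over the 9 measured genes, the normalized signal was 3039 to 4494 in knockout mice and 3973 to 4127 in wildtype mice, and the groups overlapped. Ttr makes up most of this sum. Neural retina markers summed to 8467 to 12790 in knockout mice, the lowest in knockout 2, and to 11430 to 13980 in wildtype mice.

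**Figure D4:**
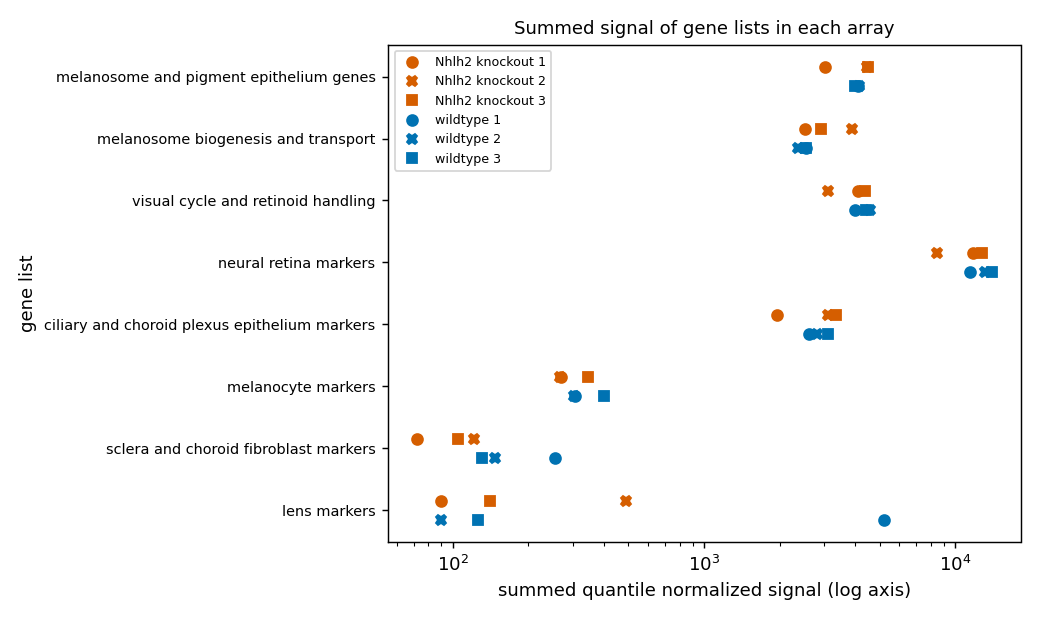
Summed quantile normalized signal (log axis) of 8 gene lists on each array, Nhlh2 knockout above wildtype for each list and marker shapes for the replicate number. Lens markers reach 5196 in wildtype 1 and stay at or below 488.6 on the other arrays, and the fibroblast sums of knockout mice, up to 120.9, lie below those of wildtype mice, from 131.0.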

How the data were processed

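Retinal RNA of 6 mice was labelled with biotin and hybridised to 6 arrays. The authors deposited an intensity on a linear scale for every probe set, computed by MAS 5.0, the Affymetrix method that subtracts background and the signal of mismatch probes. Scaling between arrays was not found in the values. Present calls were not used here.

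Signals were taken as log2(signal + 1) and quantile normalized. The 22690 probe sets hold 64 controls, which were left out. A probe set was tested when it exceeded its own array's median on 3 or more of the 6 arrays. The 11603 that did were fitted with limma 3.58.1 (R 4.3.3), 2-sided, with Benjamini-Hochberg adjustment over all of them. The threshold was an adjusted p of 0.05. The script was tested on simulated data. A gene was represented by its brightest probe set, by the average of the arrays. Correlations used SciPy 1.17.1 and exact permutation tests. Gene symbols came from the platform annotation: 20393 probe sets had 1 symbol and 691 had several, and 20364 matched RefSeq genes of GRCm38.p6 by gene ID.

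The study's methods state no knockout test, so no block was used. The pairs come from the series design. Deviations from the group means correlated at 0.271, -0.164 and 0.125 within pairs 1, 2 and 3, and knockout 1 with wildtype 2 at 0.37. Alternatives were other normalizations, constants, filters, an intensity trend, array weights, the littermate block and leaving out arrays.

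The genes, the 13 other lists and the tests were chosen with earlier results of these data known. From each other list, the 3 genes highest in wildtype and up to 3 with the largest difference could be named, any called gene as well, and the 5 genes most like the pigment genes. Array numbers limit the precision, since no depth applies.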

Additional observations from a re-analysis of the deposited data

How the results depend on the processing

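The count of called probe sets stayed at 0, for all probe sets and for the pigment genes, under every alternative except limma's array weights. Those weights did not converge and called 2378 probe sets (20.5%) and 2 of the pigment genes, a Tyrp1 probe set at -0.99 (adjusted p = 0.033) and Tyr at -0.58 (adjusted p = 0.038). The gene by gene method of weighting, chosen after seeing the data, called 0. With the littermate pair as a block the differences were the same, since a block of complete pairs cannot change them. In that fit 0 probe sets and 0 pigment genes were called, so the block changed no call. With the block and knockout 2 left out, Mitf was at -0.51, against -0.29 without the block, and again 0 were called. There 386 probe sets had an unadjusted limma p under 0.05, against 99 without the block. Leaving out each array in turn gave 0 calls throughout for all probe sets and for the pigment genes.

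Over the alternatives the difference of knockout minus wildtype ran from -1.15 to 0.21 for Pmel, -1.26 to 0.33 for Dct, -1.70 to -0.13 for Tyr, -1.88 to 0.19 for Tyrp1, -1.37 to 0.19 for Mitf and -0.92 to 0.43 for Ttr. The lowest values came from the signals as deposited, where the median of all probe sets tested was -1.38, against -0.11 after quantile normalization. On those signals the median of the 4 melanosome genes in pair 2 was -3.92, against -0.25. The count of genes above the array's median in 3 of 3 wildtype mice, 5 of 9, was 3 with the 75th percentile and 3 with plain _at probe sets, since Ttr has none and those of Tyr are dim. It was 7 with the 25th percentile and 5 without any single wildtype mouse. The median r of the 4 melanosome genes, 0.47, was 0.80 without knockout 2. With 3 mice per group and knockout 2 apart, small differences were not detectable. In the main fit with all arrays, an estimate as large as -1.72, for a Tyrp1 probe set, was not past the threshold either.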
